A study of Mus musculus with 12 samples.

Results

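The genes described here are those of the cyclins E1, E2 and A2, their kinase Cdk2, and 5 proteins that set the activity or stability of these complexes: Cdc25a, Skp2, Cks1b, Fbxw7 and Fbxo5. They were chosen by name, with earlier results of these data known, as probe sets annotated to exactly 1 of the 9 symbols. Such probe sets were found for 9 of 9 genes, 10 in all, with a pair for Fbxw7 and a single one for each other gene. All 9 genes passed the filter on low signals through at least 1 probe set and were among the 12980 genes tested. RNA came from spleen cells that flow cytometry had sorted as Ter119+ with high CD71, a gate for erythroid precursors that still take up iron, and was hybridised to 12 single-channel Affymetrix arrays. The mice were 3 months old. There were 3 arrays, labelled biological replicates, for each of 4 genotype labels: wild type (WT), E2f8 KO, Rb KO and the knockout of both genes (DKO). Which Cre line or allele made each deletion, and whether animals were pooled, was not stated in the labels, so p-values measure the spread between these samples only.

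As background, cyclin E and cyclin A bind Cdk2 and drive cells into and through S phase. Rb restrains the activating E2F factors that switch on the genes of both cyclins, and E2f8 is an atypical E2F that represses E2F targets. Cdc25a is a phosphatase that removes inhibitory phosphates from Cdk2, Skp2 and Cks1b together direct the ubiquitin ligase SCF to the Cdk inhibitor p27, Fbxw7 directs SCF to cyclin E itself, and Fbxo5 (Emi1) restrains the anaphase-promoting complex (APC/C), which would otherwise destroy cyclin A. Red cell precursors divide several times while they mature and leave the cycle before they lose their nucleus.

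The targeted genes and the markers of other cells bear on every comparison. Rb1 was at 12.83 ± 0.17 (log2 signal, mean ± SD, n = 3) in WT, 11.71 ± 0.03 in the arrays labelled E2f8 KO, 12.42 ± 0.11 in those labelled Rb KO and 12.12 ± 0.13 in those labelled DKO. E2f8 was at 11.95 ± 0.30, 12.81 ± 0.07, 12.19 ± 0.45 and 13.13 ± 0.04 in that order. Rb1 was thus lowest in the arrays labelled E2f8 KO, and E2f8 was not lower in any group than in WT. The probe sets may lie outside the deleted parts, in which case they check nothing, and every direction below rests on the labels of the arrays. Of 11 erythroid markers, 10 were measured, with a mean log2 signal of 12.75 ± 0.14 in WT, 13.02 ± 0.08 in E2f8 KO, 12.57 ± 0.36 in Rb KO and 12.98 ± 0.01 in DKO. Replicate 1 labelled Rb KO stood apart from the other arrays of its label by its B cell markers (10.03 against 12.10 and 12.03), and replicate 3 labelled DKO by its granulocyte markers (10.95 against 7.29 and 8.72). Replicate 3 of E2f8 KO and of DKO also had the X-linked long non-coding RNA Xist at 5.22 and 3.99, against 11.30 to 12.18 in the other 10 arrays.

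Against WT, 8 of the 9 genes rose and 0 fell under the E2f8 KO label. A gene is said to rise or fall where limma gave an adjusted p under 0.05 over all 12980 genes, and at that threshold 11.9% of all genes were higher and 14.2% lower. The median log2 difference of the 9 genes was 1.21, against 0.06 over all genes tested. The exception was Fbxw7, whose signals lay near the level of the filter on low signals. The 3 arrays labelled E2f8 KO all lay above the 3 WT arrays for the same count of 8 genes, and 22.3% of all genes did so. Ccne2 had the largest difference of the 9, at 1.65 ± 0.28 (SE), and Ccna2 the smallest of those that rose, at 0.58 ± 0.12. Signals are of whole sorted samples, so that fewer cells of a type and less RNA per cell cannot be told apart. B cell markers fell beside this rise (median -2.93), and with their mean as a covariate 0 of the 9 genes were called. Of all genes, 2.03% were still called with it.

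In the arrays labelled DKO, 7 of the 9 genes rose against WT and 0 fell, with 20.6% of all genes higher and 17.6% lower. Their median log2 difference was 1.54, against 0.00 over all genes. Ccne2 rose by 2.03 ± 0.28, Skp2 by 1.98 ± 0.26 and Cdk2 by 1.78 ± 0.22, while Cks1b at 0.66 ± 0.29 (adjusted p = 0.0852) and Fbxw7 at 0.35 ± 0.15 (adjusted p = 0.0841) did not pass the threshold. Groups did not overlap for 8 genes, all higher in DKO, as for 24.5% of all genes. This comparison and that of E2f8 KO share the WT arrays. B cell markers fell here too (median -4.63), and with the covariate the count was again 0, with 7.85% of all genes called.

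In the arrays labelled Rb KO, 0 of the 9 genes passed the threshold against WT in limma, 0 had an unadjusted p under 0.05, and the groups overlapped for each gene, while 2.25% of all genes lay wholly above and 4.03% wholly below WT. Of all genes, 0.00770% were called, which was 1 gene, lower in Rb KO. The median log2 difference of the 9 genes was 0.01, against 0.04 over all genes. Differences ran from -0.19 ± 0.29 for Cks1b to 0.20 ± 0.23 for Cdc25a. The 95% intervals still hold changes of some size, such as -0.53 to 0.45 for Ccne1 and -0.36 to 0.60 for Cdk2.

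Against the arrays labelled Rb KO, 8 genes rose in those labelled E2f8 KO and 8 in those labelled DKO, in each case without Fbxw7. The shares of all genes called higher were 12.2% and 19.5%, and lower 15.6% and 17.6%. Groups did not overlap for 8 and 7 of the 9 genes, as for 24.7% and 23.2% of all genes in that direction. The medians of the 9 genes were 1.34 and 1.45, against 0.05 and -0.01 over all genes. All 11 B cell markers measured fell in both comparisons (medians -3.28 and -4.66), and with their mean as a covariate 0 of the 9 genes were called in either. Of all genes, 0.624% and 4.75% were still called with it. Cks1b had its largest difference of any pair here, 1.40 ± 0.29 in E2f8 KO against Rb KO, and its call in DKO against Rb KO was at 0.86 ± 0.29 (adjusted p = 0.0319). That call was lost when only the 6 arrays compared entered the fit (adjusted p = 0.0978). It was also lost without replicate 2 or 3 of Rb KO (log2 differences 0.70 and 0.60) and without replicate 1, 2 or 3 of DKO (0.77, 0.88 and 0.92).

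Between the arrays labelled DKO and those labelled E2f8 KO, 0 of the 9 genes passed limma's threshold, with 1.73% of all genes higher and 0.647% lower. An unadjusted p under 0.05 was given for 2 of them, Ccne1 and Cdc25a, and for 2349 of all 12980 genes. The 3 DKO arrays nevertheless all lay above the 3 of E2f8 KO for 5 genes (Ccne1, Ccne2, Cdk2, Cdc25a and Skp2) and all below for Cks1b, as they did for 18.1% and 17.0% of all genes. With only these 6 arrays in the fit, 5 genes passed: Ccne1, Ccne2, Cdk2 and Cdc25a were higher and Cks1b lower in DKO, and all genes called rose from 308 to 1262. That fit takes its spread from these 6 arrays only. In this comparison 3 of 11 B cell and 4 of 11 macrophage markers fell. With the B cell covariate Ccne2, Cdk2 and Fbxo5 turned lower in DKO, at -0.22, -0.056 and -0.26 (limma adjusted p = 0.501, 0.873 and 0.494). Cks1b, at -1.14, was the 1 gene called. Of all genes, the covariate fit called 1758 (13.5%), of which 401 were lower. Over the 9 genes, the median SD of a group was 0.07 in E2f8 KO and 0.16 in DKO, against 0.35 in WT and 0.54 in Rb KO.

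The interaction of both labels asks whether the difference tied to one label changes with the other. In limma 0 of the 9 genes passed, 0 had an unadjusted p under 0.05, and 0.0770% of all genes were called. Estimates were 0.63 ± 0.36 for Skp2, 0.56 ± 0.32 for Ccne1 and -0.36 ± 0.40 for Cks1b, with 95% intervals of -0.15 to 1.42, -0.13 to 1.26 and -1.23 to 0.52.

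**Figure D1:**
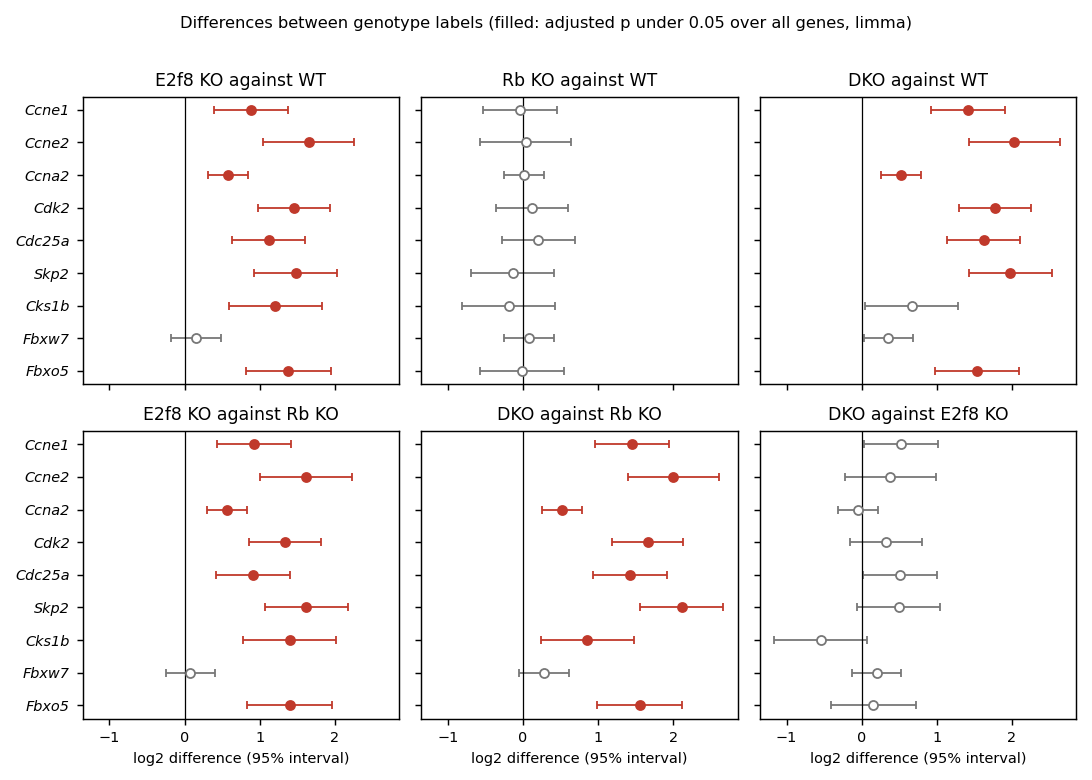
Log2 differences of the 9 genes between genotype labels, with 95% intervals (x axis, log2 units; n = 3 arrays per label; 1 panel per pair of labels; filled points had a limma adjusted p under 0.05). Ccne2 lies at 1.65 in E2f8 KO against WT and 2.03 in DKO against WT, the 9 points of Rb KO against WT lie between -0.19 and 0.20, and Cks1b is the gene farthest below 0 in DKO against E2f8 KO, at -0.55.

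Ccne1 and Ccne2 encode the E-type cyclins, the partners of Cdk2 at the start of S phase. The 3 WT arrays gave Ccne1 log2 signals of 11.78, 11.25 and 11.44, those labelled E2f8 KO 12.41, 12.43 and 12.31, those labelled Rb KO 11.92, 11.61 and 10.82, and those labelled DKO 12.80, 12.82 and 13.09. The order of means was DKO, E2f8 KO, WT, Rb KO, where only WT and Rb KO overlapped among neighbours. Ccne1 rose by 0.89 ± 0.23 (adjusted p = 0.0138) in E2f8 KO and by 1.41 ± 0.23 (adjusted p = 0.000457) in DKO against WT, and the step between those labels was 0.52 ± 0.23 (adjusted p = 0.252). The first of these calls was lost without replicate 2 of WT, at 0.77 (adjusted p = 0.0655).

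Ccne2 stood at 11.45, 10.40 and 11.22 (WT), 12.73, 12.69 and 12.61 (E2f8 KO), 11.73, 10.84 and 10.61 (Rb KO) and 13.16, 12.85 and 13.17 (DKO). WT and Rb KO overlapped over most of their ranges, and both stayed below every E2f8 KO and DKO array. The rise was 1.65 ± 0.28 (adjusted p = 0.00207) in E2f8 KO and 2.03 ± 0.28 (adjusted p = 0.000168) in DKO. From E2f8 KO to DKO the difference was 0.38 ± 0.28 (adjusted p = 0.487).

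Ccna2 encodes the A-type cyclin of dividing somatic cells, which takes over Cdk2 during S phase and also binds Cdk1. Its signals were 13.03, 12.78 and 12.94 (WT), 13.56, 13.46 and 13.47 (E2f8 KO), 13.23, 12.92 and 12.65 (Rb KO) and 13.51, 13.41 and 13.40 (DKO). The arrays of E2f8 KO and DKO overlapped, and those of WT and Rb KO did so too. Ccna2 rose by 0.58 ± 0.12 (adjusted p = 0.00606) in E2f8 KO and by 0.52 ± 0.12 (adjusted p = 0.00486) in DKO, and the difference between these labels was -0.05 ± 0.12, with a 95% interval of -0.32 to 0.21 (0.02 when each array was centred on its median). Its probe set lay near the top of the scale, with only 0.481% to 1.55% of all probe sets on an array brighter. Whether the signal of so bright a probe set still follows the amount of RNA was not tested.

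Cdk2, the kinase itself, was at 10.61, 9.86 and 10.21 (WT), 11.67, 11.68 and 11.71 (E2f8 KO), 10.79, 10.39 and 9.87 (Rb KO) and 12.07, 11.97 and 11.98 (DKO). The E2f8 KO arrays lay within 0.04 of each other, far above the highest WT array at 10.61 and the highest Rb KO array at 10.79. Cdk2 rose by 1.46 ± 0.22 (adjusted p = 0.00119) in E2f8 KO and by 1.78 ± 0.22 (adjusted p = 8.44e-05) in DKO, the smallest adjusted p of the 9 genes in both comparisons. Its difference between DKO and E2f8 KO was 0.32 ± 0.22 (adjusted p = 0.453).

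Cdc25a, whose product activates Cdk2 by dephosphorylation, was at 9.81, 9.14 and 9.21 in WT and at 10.48, 10.53 and 10.50 in E2f8 KO. In Rb KO it was at 10.03, 9.62 and 9.12, and in DKO at 11.07, 10.92 and 11.04. All 6 arrays labelled E2f8 KO or DKO were above all of WT and Rb KO, and the DKO arrays were the highest. Cdc25a rose by 1.12 ± 0.23 (adjusted p = 0.00478) in E2f8 KO and by 1.63 ± 0.23 (adjusted p = 0.000175) in DKO.

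**Figure D2:**
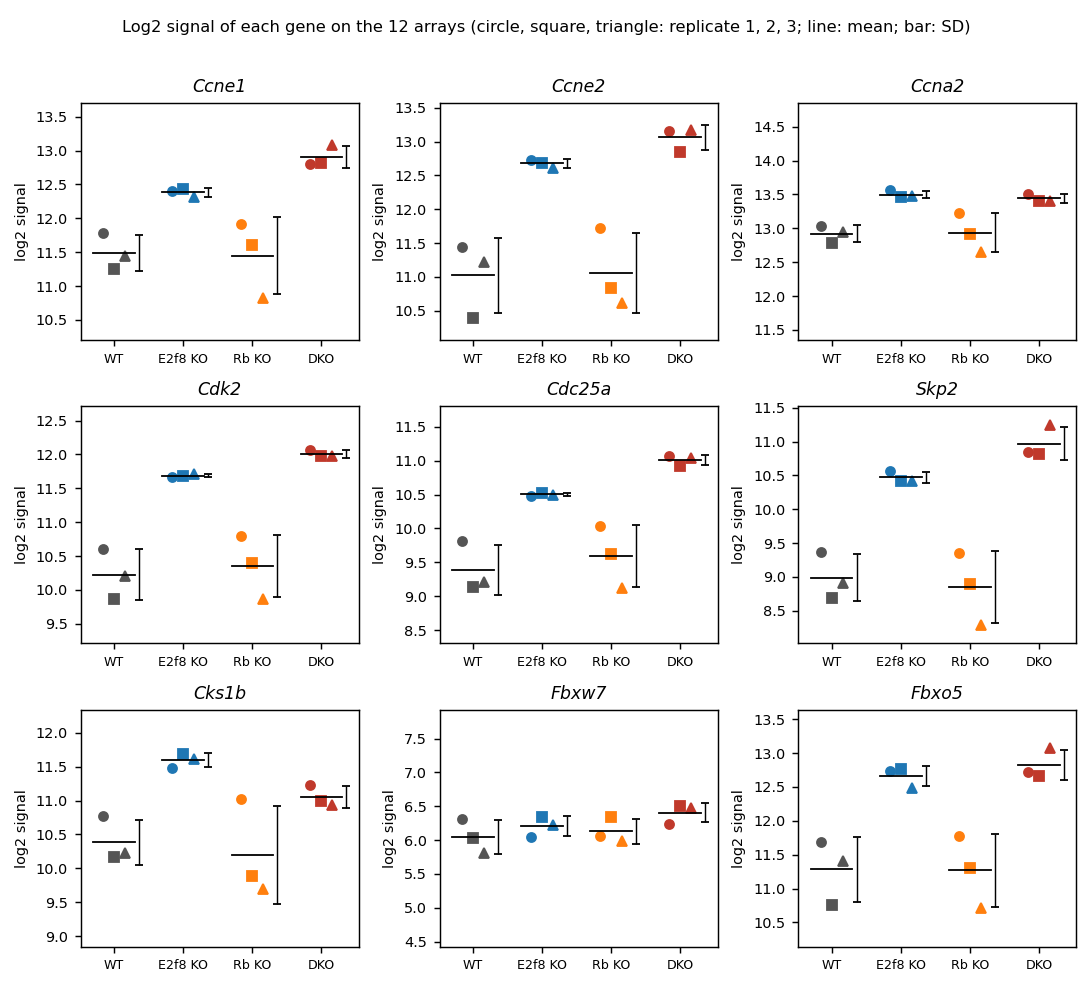
Log2 signal (y axis; each panel spans 3.5 log2 units) of the 9 genes on each of the 12 arrays, by genotype label (x axis), with the mean as a line and the SD as a bar (n = 3). Cdk2 sits at 11.67 to 11.71 in E2f8 KO and 11.97 to 12.07 in DKO, above all WT and Rb KO arrays, while Fbxw7 stays between 5.81 and 6.50 on all arrays.

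Skp2 and Cks1b act together, since Cks1b is the cofactor that lets SCF with Skp2 bind phosphorylated p27. Skp2 was at 9.37, 8.69 and 8.91 (WT), 10.57, 10.42 and 10.42 (E2f8 KO), 9.36, 8.90 and 8.29 (Rb KO) and 10.84, 10.81 and 11.25 (DKO). Here the DKO arrays were again highest, and WT and Rb KO overlapped. Skp2 rose by 1.48 ± 0.26 (adjusted p = 0.00223) in E2f8 KO and by 1.98 ± 0.26 (adjusted p = 0.000113) in DKO.

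Cks1b had another order, with E2f8 KO above DKO. Its signals were 10.77, 10.16 and 10.23 (WT), 11.48, 11.69 and 11.62 (E2f8 KO), 11.03, 9.89 and 9.69 (Rb KO) and 11.23, 11.00 and 10.93 (DKO). The highest DKO array was below the lowest of E2f8 KO, and the highest Rb KO array lay within the range of DKO. Cks1b rose by 1.21 ± 0.29 (adjusted p = 0.00948) in E2f8 KO, whereas DKO differed from WT by 0.66 ± 0.29 (adjusted p = 0.0852) and from E2f8 KO by -0.55 ± 0.29 (adjusted p = 0.329), with a 95% interval of -1.17 to 0.07. Against WT it passed the threshold without replicate 1 of Rb KO (adjusted p = 0.00463), with array weights (0.00324), with only the groups compared (0.0153) and with the replicate number as a block (0.0448). Between DKO and E2f8 KO, Skp2 differed by 0.49 ± 0.26 (adjusted p = 0.323). Neither difference was called in the fit of all arrays. Cks1b was called lower in DKO with array weights (-0.61, adjusted p = 0.0188), with only the groups compared (0.0179) and with the B cell covariate (0.00713), and Skp2 higher with array weights (0.0473). Whether the 2 genes differ from each other was not tested.

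Fbxw7, the F-box protein that marks cyclin E for destruction, had a dim probe set, near the array medians of 6.22 to 6.35. On an array, 44.8% to 62.0% of all probe sets were brighter. Whether its RNA was detected at all was not tested. The probe set tested was at 6.31, 6.03 and 5.81 (WT), 6.05, 6.34 and 6.22 (E2f8 KO), 6.06, 6.34 and 5.99 (Rb KO) and 6.24, 6.50 and 6.48 (DKO), near the filter level of 5.84. Every pair of labels overlapped. Its largest difference was 0.35 ± 0.15 in DKO against WT (adjusted p = 0.0841), which passed without replicate 1 of WT, at 0.49 (adjusted p = 0.0238), and with array weights, at 0.40 (adjusted p = 0.0232). With array weights, 9 of the 9 genes were called in DKO against WT, as were 49.3% of all genes (38.2% without weights). The other Fbxw7 probe set lay below the filter level on all arrays, between 3.54 and 4.14.

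Fbxo5 encodes Emi1, which holds back the APC/C so that cyclin A can build up. It was at 11.69, 10.76 and 11.40 (WT), 12.74, 12.76 and 12.49 (E2f8 KO), 11.78, 11.31 and 10.71 (Rb KO) and 12.72, 12.66 and 13.07 (DKO). E2f8 KO and DKO overlapped each other and were clear of WT and Rb KO. Fbxo5 rose by 1.38 ± 0.26 (adjusted p = 0.00344) in E2f8 KO and by 1.54 ± 0.26 (adjusted p = 0.000649) in DKO, and these labels differed by 0.15 ± 0.26, with a 95% interval of -0.41 to 0.72 (adjusted p = 0.776).

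Since most of these genes moved together, sequences just before their annotated starts were set beside each other. RefSeq promoter windows of build GRCm38.p6 were matched for 7 of the 9 genes (not for Ccne2 and Ccna2), and 150 bases before each start were searched on both strands. An E2F-like match was any of 4 patterns, of which the first was TTCCCGC, the second TTGGCGC, the third TTGCCGC and the fourth TTCGCGC. The CHR-like pattern, of late cell cycle genes, was TTTGAA, and that of the CCAAT box was its name. Of 32851 windows of that length, 5.47% held an E2F-like match, 9.07% a CHR-like match and 24.5% a CCAAT match. Shown 5′ to 3′ on the strand of the gene, with matches in capitals, are the windows of 5 genes that hold any: 2 with E2F-like matches (Cdk2 at chr10:128705052-128705201, minus strand, and Cdc25a at chr9:109875429-109875578, plus strand), and 3 without (the more upstream start of Skp2 at chr15:9155426-9155575, Cks1b at chr3:89418292-89418441 and Fbxo5 at chr10:5805466-5805615, all minus strand).
Cdk2: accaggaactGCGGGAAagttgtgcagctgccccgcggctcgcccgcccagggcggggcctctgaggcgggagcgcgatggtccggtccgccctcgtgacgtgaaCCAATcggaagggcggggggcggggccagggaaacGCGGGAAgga
Cdc25a: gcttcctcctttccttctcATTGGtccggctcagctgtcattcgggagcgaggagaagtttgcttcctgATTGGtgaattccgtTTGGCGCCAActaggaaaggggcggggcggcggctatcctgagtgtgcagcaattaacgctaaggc
Skp2: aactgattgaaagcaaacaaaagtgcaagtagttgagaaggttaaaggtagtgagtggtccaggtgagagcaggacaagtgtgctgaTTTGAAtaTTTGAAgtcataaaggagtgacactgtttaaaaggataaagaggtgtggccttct
Cks1b: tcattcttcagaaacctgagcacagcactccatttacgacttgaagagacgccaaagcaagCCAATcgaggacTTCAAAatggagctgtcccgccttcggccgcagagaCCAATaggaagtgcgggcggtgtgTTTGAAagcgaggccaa
Fbxo5: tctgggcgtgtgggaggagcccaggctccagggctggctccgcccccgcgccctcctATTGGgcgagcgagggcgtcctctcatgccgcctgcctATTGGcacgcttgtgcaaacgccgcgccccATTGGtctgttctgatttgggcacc

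Cdk2 held TTCCCGC on the opposite strand 140 to 134 and 10 to 4 bases before the start, and a CCAAT match 45 to 41 bases before it. In Cdc25a, TTGGCGC matched on both strands in overlapping positions, 66 to 60 and 63 to 57 bases before the start, beside 2 CCAAT matches. Cks1b had 2 CHR-like and 2 CCAAT matches. Fbxo5 had 3 CCAAT matches, at 93, 55 and 25 bases before the start, and the upstream Skp2 window had 2 CHR-like matches. No pattern matched in the windows of Ccne1, of the other Skp2 start or of the 3 Fbxw7 starts. A match is a description of letters, not of a bound site.

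Other genes that act on or under these complexes were listed by role, 45 in all, of which 41 were measured. In E2f8 KO against WT 15 rose and 2 fell, where 11.9% of all genes were higher and 14.2% lower, with a median log2 difference of 0.38 (0.06 over all genes). In DKO against WT 20 rose and 3 fell, where 20.6% were higher and 17.6% lower, with a median of 0.42 (0.00 over all genes). For Rb KO against WT limma called 0. An unadjusted p under 0.05 was given for 4 of the 41, and for 597 of all 12980 genes: Pkmyt1 (0.65 ± 0.20), Wee1 (0.54 ± 0.22), Cdt1 (0.56 ± 0.20) and the APC/C activator Fzr1 (-0.40 ± 0.14).

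Most substrates and licensing factors passed the threshold. Of 8 genes 6 rose and 1 fell in E2f8 KO, and 7 rose and 1 fell in DKO. Of all genes 11.9% and 20.6% were higher, and 14.2% and 17.6% lower. Npat, a cyclin E-Cdk2 substrate that switches on histone genes, rose by 1.40 ± 0.27 and 1.62 ± 0.27 in the respective comparisons with WT. Gmnn, the inhibitor of Cdt1, rose by 1.15 ± 0.23 and 1.62 ± 0.23, and Cdt1, which loads the replicative helicase, by 0.78 ± 0.20 and 1.72 ± 0.20. The gene that fell in both was Rbl2, of the pocket protein p130, by 0.72 ± 0.19 and 0.90 ± 0.19.

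The counts of the next 3 roles stand beside 11.9% of all genes higher and 14.2% lower in E2f8 KO, and 20.6% and 17.6% in DKO. None of these small groups was tested against other genes. Among genes that restrain the kinases, 2 of 4 rose and 0 fell in both comparisons. Wee1, which places the phosphate that Cdc25a removes, rose by 1.24 ± 0.22 in E2f8 KO and 1.79 ± 0.22 in DKO, and its relative Pkmyt1 by 0.65 ± 0.20 and 1.55 ± 0.20. The genes of kinase activation went both ways, with 1 of 4 higher and 1 lower: Cdc25c rose by 1.19 ± 0.32 and 0.93 ± 0.32, and Cdc25b fell by 0.56 ± 0.13 and 0.87 ± 0.13. Among other cyclin and kinase partners, 3 of 3 rose in E2f8 KO and 2 of 3 in DKO, among them Cdk1 (1.02 ± 0.25 and 1.15 ± 0.25) and Cks2, the paralog of Cks1b (0.64 ± 0.16 and 0.64 ± 0.16).

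Of 8 SCF and cullin genes 2 rose and 0 fell in E2f8 KO, and 4 rose and 1 fell in DKO. Ccnf, an F-box cyclin, rose by 1.05 ± 0.24 and 1.17 ± 0.24, and Cul1, the SCF scaffold, by 0.69 ± 0.21 and 0.89 ± 0.21. Of 14 APC/C genes 1 rose in E2f8 KO and 4 in DKO, with 0 lower. Of all genes 11.9% and 20.6% were higher, and neither ligase group was tested against other genes. The activator Cdc20 rose by 0.88 ± 0.22 and 0.95 ± 0.22, Anapc11, the catalytic RING subunit, differed by 0.38 ± 0.21 (adjusted p = 0.208) in E2f8 KO and rose by 0.89 ± 0.21 in DKO, and Cdc23 differed by 0.47 ± 0.18 (adjusted p = 0.0766) and 0.27 ± 0.18 (adjusted p = 0.277).

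Between DKO and E2f8 KO, 2 of the 41 genes rose and 0 fell, where 1.73% of all genes were higher and 0.647% lower. These were Cdt1, by 0.95 ± 0.20 (adjusted p = 0.0314), and Pkmyt1, by 0.90 ± 0.20 (adjusted p = 0.0394). Against Rb KO, 13 rose and 1 fell in E2f8 KO, where 12.2% of all genes were higher and 15.6% lower. In DKO 20 rose and 2 fell, where 19.5% were higher and 17.6% lower. The interaction was called for 0 of 41 in limma, and 0 had an unadjusted p under 0.05.

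**Figure D3:**
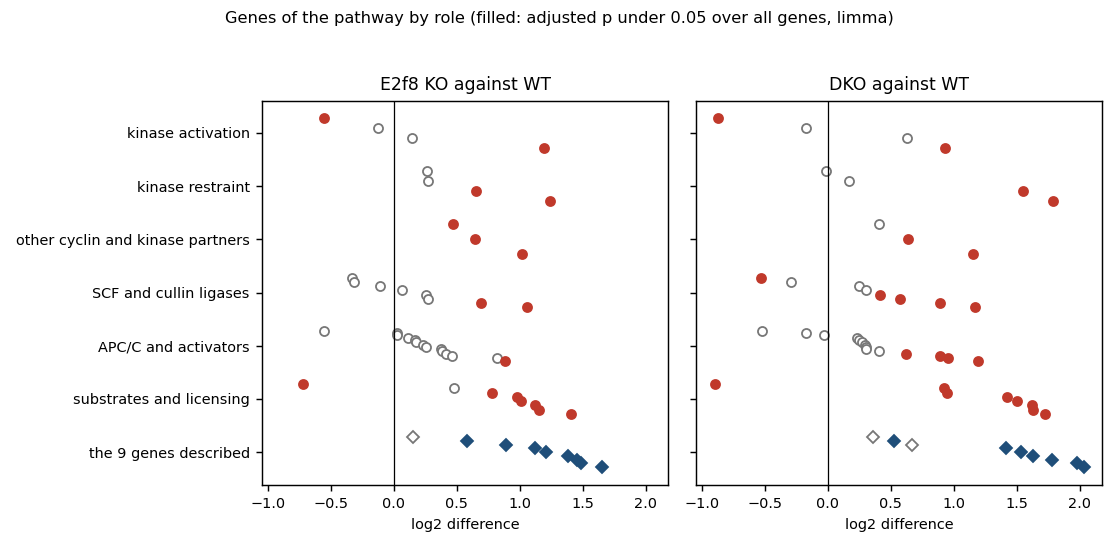
Log2 differences (x axis) of 41 pathway genes by role (circles) and of the 9 genes described (diamonds, lowest row), for E2f8 KO and DKO against WT; filled symbols had a limma adjusted p under 0.05. In DKO, substrates and licensing factors run from -0.90 (Rbl2) to 1.72 (Cdt1), and the 9 genes from 0.35 (Fbxw7) to 2.03 (Ccne2).

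The genes whose pattern was most like each cyclin and Cdk2 were found over the 12 arrays by the root mean square difference between centred log2 signals, which includes the differences between groups. For Ccne1 they were Brip1os (0.09 log2 units), Stag1 (0.09) and Pdhx (0.11), against a median of 0.70 over 12979 genes. For Ccne2 they were Fmr1 (0.14), 4930579G24Rik (0.15) and Klf10 (0.18), against 0.99. Ccna2 was closest to Nptn (0.05), Cks2 (0.06) and Sumo2 (0.07), against 0.37, and Cdk2 to Npat (0.09), Ctdspl2 (0.09) and Apex2 (0.12), against 0.84. Npat and Cks2 are also on the list of pathway genes above. Among the 9 genes the closest pairs were Ccne1 with Cdc25a (0.15) and Cdk2 with Fbxo5 (0.16), and Ccne1 and Ccne2 were 0.39 apart.

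Within WT and within Rb KO, most of the 9 genes moved together from array to array. In WT, replicate 1 was highest for 9 of 9 genes and replicate 2 lowest for 8. In Rb KO, replicate 1 was highest for 8 and replicate 3 lowest for 9, with a mean gap to the group mean of 0.455 and -0.454 log2 units. E2f8 KO and DKO showed no such order, where mean gaps lay between -0.0805 and 0.0832. The share of all genes with the orders seen in WT and Rb KO was not counted. The erythroid markers had the same order in WT (12.88, 12.61 and 12.75) and in Rb KO (12.94, 12.56 and 12.22). B cell markers were at 11.09, 11.92 and 10.62 in WT and at 10.03, 12.10 and 12.03 in Rb KO, so that the Rb KO array with the highest cyclin signals had the lowest B cell signals.

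Markers of other spleen cells also differed between the labels beside the 9 genes. Of 12 B cell genes 11 were measured, and 11 fell in E2f8 KO, 11 in DKO and 0 in Rb KO against WT, with medians of -2.93, -4.63 and 0.17. Their summed signal (log2) ranged over the 3 arrays from 14.69 to 15.83 (WT), 14.22 to 15.88 (Rb KO), 12.29 to 12.72 (E2f8 KO) and 10.04 to 11.36 (DKO). That of 11 macrophage genes was 13.59 to 14.58, 12.88 to 13.41, 12.47 to 12.60 and 11.34 to 11.72 in the same order, and that of 7 T cell genes was 10.95 to 11.40, 10.05 to 11.37, 9.15 to 9.36 and 8.67 to 8.92. The 10 granulocyte genes summed to 10.33 to 10.41, 11.16 to 11.68, 12.98 to 13.56 and 11.29 to 15.21. Against WT, 10 macrophage and 7 T cell genes fell in E2f8 KO, 11 and 7 in DKO and 0 and 0 in Rb KO, and 7, 8 and 0 granulocyte genes rose. Median differences of the macrophage genes were -1.54 in E2f8 KO, -2.59 in DKO and -1.02 in Rb KO. Although none was called in Rb KO, their list mean was 9.05 there and 10.02 in WT. A mean over all 12 arrays set the filter, so a marker could pass it through the labels where it was high. Some markers ended under the filter level of 5.84: in DKO, Cd3g was at 4.87 (8.19 in WT) and Cr2 at 5.61 (10.16 in WT). The T cell list mean was 5.77 in DKO, and Ly6g, of the granulocyte list, was at 5.27 in WT. Whether differences that reach so low a level are cut short was not tested. The parts of macrophages, T cells and granulocytes in the results were not tested either. Erythroid markers summed to 16.32 to 16.46, 16.05 to 16.50, 16.44 to 16.57 and 16.45 to 16.47, and their median difference from WT was 0.26 in E2f8 KO and 0.19 in DKO, against 1.21 and 1.54 for the 9 genes. They went both ways: of 10 measured, 2 rose and 1 fell in E2f8 KO, and the same counts held in DKO. Of all genes 11.9% and 20.6% were higher, and 14.2% and 17.6% lower. The erythroid markers were bright, with WT means from 11.30 (Epor) to 14.24 (Alas2), and Epor was at 12.16 and Alas2 at 13.97 in E2f8 KO. Whether such bright signals still follow the amount of RNA was not tested.

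With the mean of the B cell list of each array as a covariate, 0 of the 9 genes were called in E2f8 KO or in DKO against WT, or in either of these against Rb KO. In E2f8 KO against WT, Skp2 then had a difference of 0.81, Cdk2 of 0.63, Ccne2 of 0.34, Ccne1 of 0.25 and Cks1b of -0.09. In DKO against WT they were 0.99, 0.58, 0.12, 0.48 and -1.23 in that order. All genes called went from 3388 to 263 in E2f8 KO and from 4952 to 1019 in DKO against WT. Against Rb KO they went from 3601 to 81 and from 4819 to 616. The slope of this fit comes from differences within labels, which were largest in Rb KO (SD 1.17) and WT (SD 0.66), and the fit extends it to group means that lie far apart, from 11.21 in WT to 6.88 in DKO. Leaving out the arrays that stood apart moved the counts of the 9 genes little: without replicate 1 of Rb KO 8 were called in DKO against WT and 8 in DKO against Rb KO. Without replicate 3 of DKO these counts were 7 and 7, and without replicate 3 of E2f8 KO the comparison of E2f8 KO with WT had 8.

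**Figure D4:**
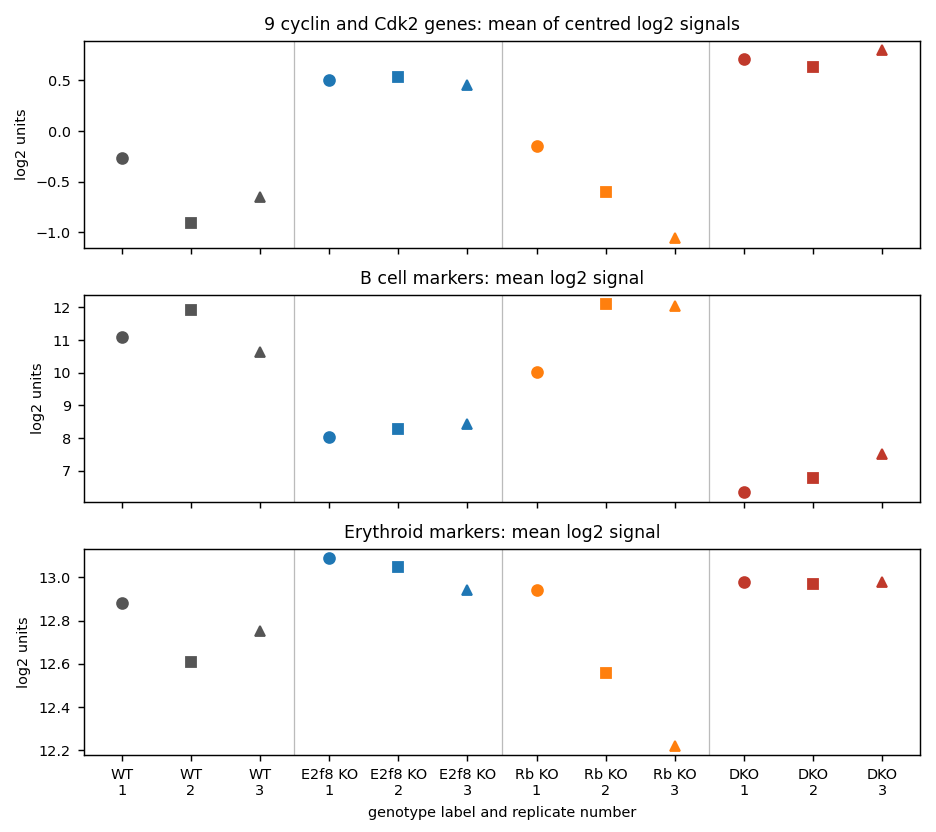
Mean of the 9 genes after centring each on its mean over the 12 arrays (top), and mean log2 signals of 11 B cell markers (middle) and 10 erythroid markers (bottom), for each array (x axis; y axes in log2 units; symbols mark replicate numbers). The 9 genes run from -1.06 (Rb KO replicate 3) to 0.80 (DKO replicate 3), and the B cell markers from 12.10 (Rb KO replicate 2) down to 6.35 (DKO replicate 1).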

How the data were processed

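Arrays of RNA from sorted spleen erythroid precursors of 3-month-old mice were compared, 3 per genotype label, with groups and replicate numbers taken from the titles. The authors deposited log2 values, a scale inferred from their range (1.07 to 14.84), and the submitters' processing notes name MAS5 without a version. Probe set identifiers are of a gene-level array, for which MAS5 is unusual, and neither background correction nor normalization is stated in the sources read. Array medians were 6.22 to 6.35, and values were used with no pseudocount or further normalization. Precision is limited by the number of arrays, with a median standard error of 0.184 per difference.

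Of 35557 probe sets, 21789 carried 1 symbol in the platform annotation, 1621 several and 12147 none. For 21698 of the probe sets with 1 symbol, the current symbol was looked up by gene number, whether or not it differed. The dimmest 40% of probe sets over all arrays (mean under 5.84) were left out, and the brightest probe set stood for each gene (12980 genes). All 12 arrays entered 1 fit in limma 3.58.1 (R 4.3.3), with 1 coefficient per label, 8 residual degrees of freedom, a mean trend, two-sided tests and Benjamini-Hochberg adjustment over all genes of each of 7 comparisons. The fit was tested on simulated data.

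The 9 genes and the lists were chosen with earlier results of these data known. Of other pathway genes, the 2 with the smallest p in each role are named, and further ones after their values were seen. Some listed marker genes were below the filter or are not reported here. Replicate numbers were not treated as pairs in the main fit. Deviations of same-numbered arrays correlated between -0.379 and 0.57. Differently numbered arrays were not compared, so whether the numbers pair the arrays is not known. Alternatives were other filters, normalizations, probe set rules, variance models, array weights, samples, a replicate block, a B cell covariate, call rules and leaving out each array.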

Additional observations from a re-analysis of the deposited data

How the results depend on the processing

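Over 14 kinds of alternative, the counts of the 9 genes called kept within 1.5 times of the reported ones, with these exceptions. With the B cell list mean as a covariate 0 were called for E2f8 KO and DKO, each against WT and against Rb KO, and 1 for DKO against E2f8 KO (Cks1b, -1.14). In the last of these 13.5% of all genes were called. DKO against E2f8 KO, with 0 reported, gave 4 with array weights and 5 with only the groups compared, and E2f8 KO against Rb KO gave 5 where at least a 2-fold change was also asked. The shares of all genes called were 20.7%, 9.72% and 11.8% in that order. Leaving out each array in turn gave 7 to 8 genes for E2f8 KO against WT and for DKO against either WT or Rb KO, 8 to 8 for E2f8 KO against Rb KO, and 0 to 0 for the other comparisons. With the replicate number as a block, 8 genes were called in E2f8 KO against WT and 8 in DKO against WT. Whether the numbers pair the arrays is not known: 7 of 18 same-numbered pairs correlated over 0.1, and differently numbered ones were not compared. The ranges over all genes that follow leave out the alternatives that changed the call rule. For E2f8 KO against WT, where 3388 was reported, the count called ran from 263 (B cell covariate) to 6649 (array weights). It ran from 1019 to 6398 for DKO against WT (4952), 616 to 5937 for DKO against Rb KO (4819) and 81 to 5886 for E2f8 KO against Rb KO (3601), with the extremes at the same settings. For DKO against E2f8 KO (308) the lowest was 82, without replicate 1 of E2f8 KO, and the highest 2683, with array weights. For Rb KO against WT (1) it was 0 to 139, the latter without replicate 1 of Rb KO, and for the interaction (10) 2 to 224.

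Differences that changed sign were these, and the cause was not tested. In Rb KO against WT, Fbxo5 was at 0.011 after quantile normalization, 0.20 with array weights and 0.038 with the covariate, and Ccne1 at 0.040 with array weights. Ccna2 in DKO against E2f8 KO was at 0.016 with arrays centred on their medians. The interaction of Fbxo5 was -0.049 with array weights. With the covariate, Cks1b was at -0.087 in E2f8 KO and -1.23 in DKO against WT and -1.12 in DKO against Rb KO, and Ccna2 at -0.26 in DKO against WT, -0.30 in DKO against Rb KO and -0.0043 in E2f8 KO against Rb KO. In DKO against E2f8 KO it put Ccne2 at -0.22, Cdk2 at -0.056 and Fbxo5 at -0.26, and the interactions of Ccne2, Cdk2, Cdc25a and Fbxo5 at -0.34, -0.22, -0.045 and -0.30. Leaving out single arrays in Rb KO against WT gave ranges of -0.28 to 0.28 for Ccne1, -0.30 to 0.26 for Ccne2, -0.14 to 0.16 for Ccna2, -0.10 to 0.36 for Cdk2, -0.016 to 0.44 for Cdc25a, -0.39 to 0.14 for Skp2, -0.60 to 0.066 for Cks1b, -0.043 to 0.21 for Fbxw7 and -0.28 to 0.26 for Fbxo5. For the interaction they were -0.21 to 0.083 for Ccna2, -0.037 to 0.42 for Cdk2, -0.61 to 0.057 for Cks1b, -0.010 to 0.24 for Fbxw7 and -0.11 to 0.43 for Fbxo5.

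With 3 arrays per label, small differences are out of reach, and the signals of Fbxw7 lie near the filter level. The sources used here do not give the scale of the values, their normalization or how arrays tie to animals.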
